A study of Homo sapiens with 16 samples.

Results

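A set of 10 genes whose proteins assemble ribosomes in the nucleolus was followed through 16 libraries of mRNA recovered with the microRNA silencing complex (RISC) from HEK 293 cells, a human embryonic kidney line. The genes were DCAF13, DNTTIP2, FBL, NOP56, NOP58, UTP3, UTP18, UTP20, NOLC1 and NCL, 10 of the 19077 genes in the deposited count table. They were listed by symbol. DCAF13 and DNTTIP2 were chosen by their high CPM in the mir1180-3p libraries, so their values with that miRNA are a description and carry no test. The RISC-trap method uses a dominant-negative form of the RISC protein GW182 to hold a miRNA together with its mRNAs, which are then immunoprecipitated and sequenced, and the study used it to find the mRNAs that selected miRNAs bind.

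The groups were mir1180-3p, mir1301-3p, mir550-3p, mir1271-5p, mir1260a-5p and mir3613-5p with 2 libraries each, mir124-3p sequenced on Illumina (3 libraries) and mir124-3p sequenced on SOLiD (1 library). All 16 were polyA RNA from the same cell line. The labels used here name no library without a miRNA and no input RNA, so each miRNA was set against the other miRNAs, and more RISC on an mRNA cannot be told apart from more of that mRNA in the cells. The column names of both mir550-3p libraries and of 1 mir1301-3p library hold "bio", which may stand for biological replicate. No label says whether the libraries of a miRNA came from separate cultures, so p-values measure the spread between libraries, which may be technical.

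Ribosomes are built in the nucleolus, where RNA polymerase I makes the precursor of the ribosomal RNAs. On that precursor the small subunit processome, a very large complex that includes most UTP proteins, folds and cuts the part that becomes the small subunit. Box C/D snoRNPs, particles of a guide RNA with NOP56, NOP58 and the methyltransferase fibrillarin (FBL), add methyl groups to it. These genes are expressed in all growing cells, and their mRNAs are common in a line such as HEK 293.

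The miRNAs that the libraries were made with are shown first, since each comparison below is between them. The mature sequences are RefSeq's, 5′ to 3′, and capitals mark the seed, bases 2 to 8, which usually pairs with the target mRNA.
mir1180-3p: uUUCCGGCucgcgugggugugu
mir1260a-5p: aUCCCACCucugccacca
mir1271-5p: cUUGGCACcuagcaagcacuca
mir1301-3p: uUGCAGCUgccugggagugacuuc
mir3613-5p: uGUUGUACuuuuuuuuuuguuc
mir550-3p: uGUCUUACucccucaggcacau

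These 6 miRNAs have 6 different seeds, so no pair shares the bases by which a miRNA mainly finds its targets. On build GRCh38.p14 the mature miRNAs lie at chr17:19344513-19344534 (mir1180-3p, minus strand), chr14:77266231-77266248 (mir1260a-5p, plus), chr5:176367960-176367981 (mir1271-5p, plus), chr2:25328651-25328674 (mir1301-3p, minus) and chr13:49996465-49996486 (mir3613-5p, minus). The sequence of mir550-3p is encoded at chr7:29680748-29680769 (minus) and at chr7:32733041-32733062 (plus). RefSeq names the mir1260a-5p sequence hsa-miR-1260a and the mir550-3p sequence hsa-miR-550a-3p.

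The libraries held 7612758 to 26527365 counts, and levels are given as CPM, an mRNA's counts per 1000000 counts of its library, after scaling the 16 libraries to each other. A CPM is not corrected for the length of the mRNA, so levels are compared between libraries and not between genes. Each of the 10 genes had at least 128 counts in every library, and all 10 passed the filter on low counts. The 128 counts were those of UTP20 in 1 mir1180-3p library, where its 14.4 CPM had a 95% Poisson interval of 12.01 to 17.1 CPM, which covers counting error only. The 8 HEK 293 marker genes were detected in all libraries and summed to 997 to 2018 CPM. The largest parts of that sum were VIM (406 to 1088 CPM) and NEFL (313 to 711 CPM), while KRT8 and PAX2 went down to 0.33 and 0.89 CPM. TNRC6A, the gene of GW182, had 5667 to 16071 CPM in the 12 libraries of the first 6 miRNAs. With mir124-3p it had 46744, 13923 and 48453 CPM in the Illumina libraries and 50722 CPM in the SOLiD library, so the second Illumina library stood apart.

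**Figure D1:**
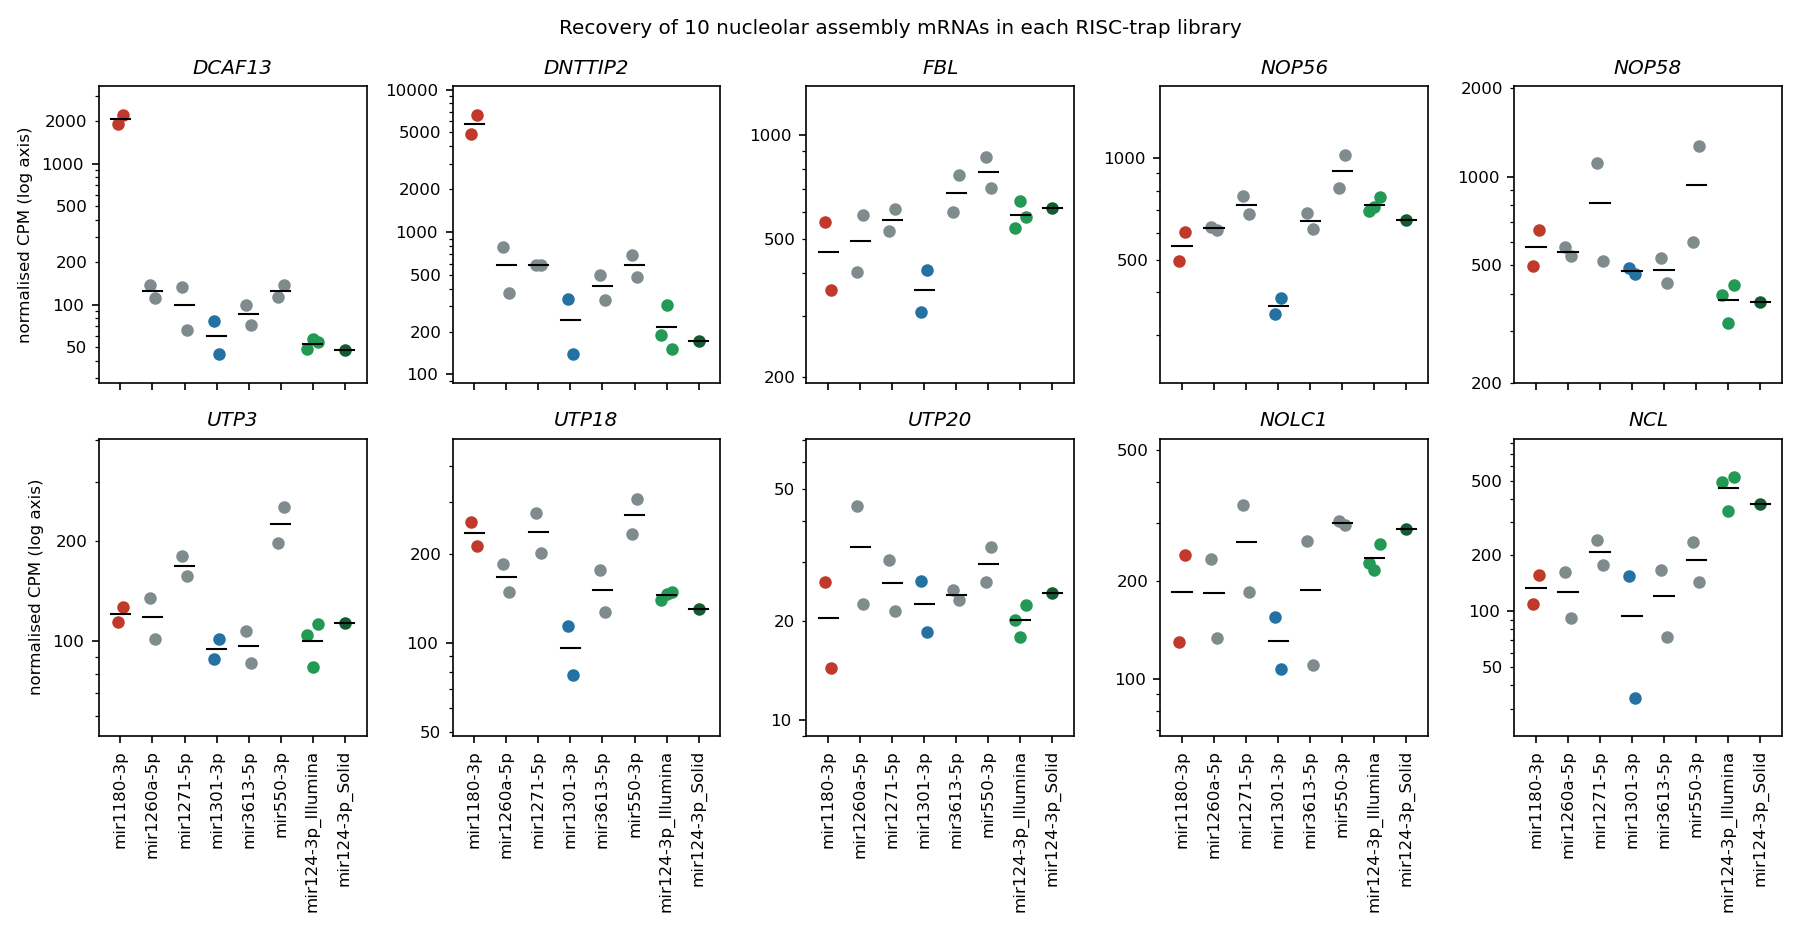
Normalised CPM (log axis) of each of the 10 genes in each of the 16 libraries, by miRNA; a point is 1 library and a bar the group's mean. DCAF13 (1906 and 2224 CPM) and DNTTIP2 (4872 and 6628 CPM) stand far above all other libraries with mir1180-3p, while the other 8 genes do not, and NOP56 and UTP18 are lowest with mir1301-3p.

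DCAF13 and DNTTIP2 were the genes of this set that stood higher in both mir1180-3p libraries than in every other library. DCAF13 is a WD-repeat protein, the human counterpart of yeast Sof1, and belongs to the small subunit processome. It had 1906 and 2224 CPM with mir1180-3p, against 44.4 to 138 CPM (median 106) in the 10 libraries of the other 5 miRNAs. The lowest mir1180-3p library was 13.8-fold above the highest of all 14 other libraries, mir124-3p included.

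DNTTIP2, the human counterpart of yeast Fcf2, is a processome protein too. It had 4872 and 6628 CPM with mir1180-3p, against 139 to 790.4 CPM (median 490.4) with the other 5 miRNAs. The mir1180-3p libraries again stood clear, by 6.16-fold over the highest of the other 14. Every mir1180-3p library lay above those of the other 5 miRNAs in 3.68% of all genes. The means were 2065 ± 224 CPM with mir1180-3p and 99.2 ± 33.1 CPM with the other 5 miRNAs for DCAF13 (SD, n = 2 and 10), a fitted log2 fold change of 4.32 ± 0.24 (SE) or 19.9-fold. For DNTTIP2 they were 5750.0 ± 1241 CPM and 482 ± 192 CPM, a log2 fold change of 3.54 ± 0.28 or 11.6-fold.

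Ordered by log2 fold change, DCAF13 was 4th and DNTTIP2 15th of the 17658 genes fitted. These values chose both genes, so they are not tested here. Leaving out each library in turn kept DCAF13 between 4.23 and 4.44 and DNTTIP2 between 3.34 and 3.72. That steadiness describes the same values that chose both genes and is no test of them. Over all genes 1.92% were called higher with mir1180-3p and 0.153% lower, at a Benjamini-Hochberg adjusted p under 0.05 in edgeR's quasi-likelihood test, the rule for a call throughout.

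The other 8 genes did not share this height. UTP18, a WD-repeat subunit of the processome, was the only one with a positive log2 fold change, 0.33, at 257 and 213 CPM with mir1180-3p, against a median of 181 CPM with the other 5 miRNAs. The remaining 7 lay between -0.49 for UTP20 and -0.21 for NCL. Their mir1180-3p values fell inside or next to the range of the other libraries: FBL had 562 and 357 CPM with mir1180-3p, against 308 to 865 CPM, and NOP58 had 498 and 658 CPM, against 435 to 1268 CPM. The median of the 10 was -0.24, beside -0.07 for all genes. Ribosomal protein genes, a separate group that was not among the 10, took 16.3% and 15.7% of all counts with mir1180-3p, against 6.39% to 11.9% with the other 5 miRNAs. With mir124-3p they took still more on Illumina, 18.4%, 24.8% and 19.3%, and 7.16% on SOLiD. RPL19 alone took 5.26% and 4.92% with mir1180-3p, against 0.141% to 0.291%, and without it the ribosomal protein share was 11.1% and 10.8%, against 6.25% to 11.6%, so both values then lay inside the range of the others. The part of these genes in the values of the 10 was not tested.

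Other genes of the same machinery were read in 4 lists with 149 genes in the table: 54 of the small subunit processome, 16 of snoRNPs and their assembly, 60 of large subunit assembly, and 19 of RNA polymerase I and the nucleolar scaffold. A list is named for its main complex or step. Not every gene on the processome list, such as RRP8 and WBSCR22, is part of that complex. With mir1180-3p, 1 of the 149 was called, LSG1, a GTPase of the last cytoplasmic steps of the large subunit. LSG1 had 104.9 and 86.8 CPM with mir1180-3p and 29.6 ± 14.1 CPM with the other 5 miRNAs (log2 fold change 1.69 ± 0.31, adjusted p = 0.00433 in edgeR). Without the first mir1180-3p library, none of the 149 was called. No other processome gene on the list was called in that comparison by edgeR, though 10 of the 54 had an unadjusted p under 0.05, beside 13.7% of all genes, and the list's median log2 fold change was -0.31. DESeq2 called 4 of the 149 higher and 4 lower, beside 2.79% of all genes higher and 1.14% lower.

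The mRNAs nearest in pattern to both genes were sought among the 11466 genes that averaged 5 CPM or more in the 12 libraries of the 6 miRNAs. The measure was the root mean square difference of log2 CPM, each gene centred on its own mean. The nearest to DCAF13 were HIST1H2BK (0.48), a histone H2B gene with close paralogs that may share its reads, DNTTIP2 (0.49) and PLRG1 (0.54), a spliceosome protein. The nearest to DNTTIP2 were PLRG1 (0.38), DCAF13 (0.49) and C6orf62 (0.50). The deviations of DCAF13 and DNTTIP2 themselves over the 12 libraries were 1.73 and 1.51. The 2 mir1180-3p libraries that chose both genes are among the 12, so this nearness restates that choice. Over the 10 libraries without mir1180-3p, a comparison chosen after seeing the data, DNTTIP2 was only the 2015th nearest gene to DCAF13 and DCAF13 the 397th nearest to DNTTIP2, at a difference of 0.43 beside their own deviations of 0.52 and 0.68.

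**Figure D2:**
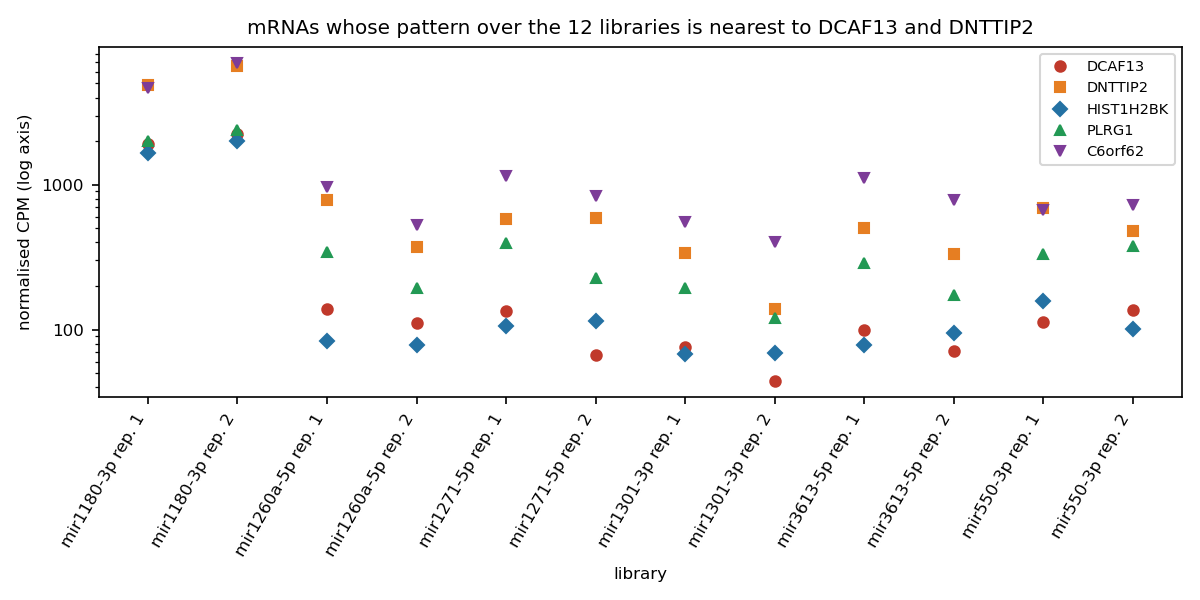
Normalised CPM (log axis) in the 12 libraries of 6 miRNAs for DCAF13, DNTTIP2 and the 3 mRNAs nearest to them in pattern, HIST1H2BK, PLRG1 and C6orf62. All 5 are highest in the mir1180-3p libraries, at 1906 and 2224 CPM for DCAF13; the measure chose them for this likeness.

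Of the 10 genes 3, NOP56, UTP18 and DNTTIP2, were called lower with mir1301-3p than with mir550-3p, mir1271-5p, mir1260a-5p and mir3613-5p, and none higher, by edgeR with adjusted p between 0.021 and 0.033. In that comparison 6.55% of all genes were called lower and 15.2% higher. An unadjusted p under 0.05 in the same test was given to 7 of the 10, beside 39.7% of all genes. From here on mir1180-3p is kept out of the groups that a miRNA is set against, since it chose 2 of the genes.

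NOP56, which pairs with NOP58 in the core of box C/D snoRNPs, had 345 and 386 CPM with mir1301-3p, against 610.0 to 1019 CPM (median 682) in the 8 libraries of the other 4 miRNAs. The groups did not overlap, as was so below the range for 11.3% of all genes. The means were 366 ± 28.6 CPM with mir1301-3p and 728 ± 139 CPM with the others (SD, n = 2 and 8), 1.97-fold lower with mir1301-3p (log2 fold change -0.98 ± 0.27, adjusted p = 0.022 in edgeR).

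Its partners gave smaller differences. FBL had 308 and 407 CPM with mir1301-3p, against 403 to 865 CPM (median 605) with the other 4 miRNAs, and the groups overlapped (log2 fold change -0.80 ± 0.31, edgeR adjusted p = 0.068). NOP58 had 488 and 469 CPM with mir1301-3p, inside the 435 to 1268 CPM of the others (log2 fold change -0.50 ± 0.33, edgeR adjusted p = 0.27). Of these 3 proteins from the core of one particle, only NOP56 passed the test, and differences between the 3 genes were not tested. Under 17 alternative settings of the fit, FBL was called in 2 and NOP56 in 14.

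Of the processome genes, UTP18 and DNTTIP2 fell. UTP18 had 114 and 77.6 CPM with mir1301-3p, against 127 to 309 CPM (median 194) with the other 4 miRNAs, with no overlap. It was 2.12-fold lower with mir1301-3p (log2 fold change -1.09 ± 0.30, edgeR adjusted p = 0.021). The separation depended on the scaling. Without scaling, UTP18 had 147 and 102 CPM with mir1301-3p and 137 CPM in the second mir3613-5p library, so the groups overlapped. In RefSeq the UTP18 gene overlaps MBTD1, and the table gave MBTD1 a log2 fold change of -0.19 ± 0.31 in the same comparison (edgeR adjusted p = 0.66).

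DNTTIP2 had 340.4 and 139 CPM with mir1301-3p, against 333 to 790.4 CPM (median 541), so its higher library reached into the range of the others (log2 fold change -1.20 ± 0.37, edgeR adjusted p = 0.033). DCAF13 had 76.3 and 44.4 CPM with mir1301-3p, against 66.5 to 138 CPM, and missed the threshold (log2 fold change -0.86 ± 0.33, edgeR adjusted p = 0.064). Under 17 alternative settings of the fit, DCAF13 was called in 4. UTP3, the counterpart of yeast Sas10, and UTP20, a very long processome protein, had log2 fold changes of -0.60 and -0.33 and were not called.

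The scaffold proteins did not pass the test. NOLC1, which carries snoRNPs and binds RNA polymerase I, had 155 and 108 CPM with mir1301-3p, against 111 to 339.5 CPM with the other 4 miRNAs (log2 fold change -0.82 ± 0.38, edgeR adjusted p = 0.118). NCL, the abundant RNA-binding protein nucleolin, had 154 and 34.4 CPM with mir1301-3p, 1 library inside and 1 below the 73.2 to 241 CPM of the others (log2 fold change -0.79 ± 0.45, edgeR adjusted p = 0.199).

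All 10 log2 fold changes with mir1301-3p were negative, with a median of -0.81, beside -0.05 for all genes. Upper-quartile scaling moved the median of all genes by 0.45 and left the 10 at a median of -0.35, with 9 of them negative and none called. Relative to the median of all genes, the 10 stood at -0.75 under both scalings. Without either mir1301-3p library none of the 10 was called, with log2 fold changes of DNTTIP2 at -1.90 without the first and -0.74 without the second.

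With mir1301-3p 31 of the 149 other nucleolar genes (20.8%) were called lower and none higher, beside 6.55% of all genes called lower. By an unadjusted p under 0.05 in either direction they stood nearer to all genes, at 63 of the 149 beside 39.7%. Negative log2 fold changes were given by 138 of the 149, with a median of -0.65. The called genes were 14 of 54 in the small subunit processome list and 2 of 16 among snoRNPs and their assembly. In large subunit assembly they were 12 of 60, and with RNA polymerase I and the scaffold 3 of 19.

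In the processome list RRP36 had 38.9 and 47.1 CPM with mir1301-3p and 115 ± 25.5 CPM with the other 4 miRNAs (log2 fold change -1.40, edgeR adjusted p = 0.011), RRP8 stood at -1.67 and WBSCR22, the methyltransferase BUD23, at -1.48. RPAP3 (-1.21) and PIH1D1 (-1.06), both parts of the R2TP chaperone that assembles box C/D proteins, were the 2 called in the snoRNP list. In the large subunit list NOP16 stood at -1.59, PES1, of the PeBoW complex, at -1.28, and SENP3, a SUMO protease, at -1.27. The RNA polymerase I subunits POLR1C (-1.68), POLR1E (-0.90) and ZNRD1 (-1.10) were the 3 called in the last list.

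These counts lean on single libraries and on the scaling. Without the first mir1301-3p library none of the 149 was called and without the second 6 were, with mir1301-3p then a single library, while the median of the 149 was -0.63 and -0.67. Leaving out the first mir3613-5p library or either mir550-3p library left 14, 15 and 16. Upper-quartile scaling called 4 higher and 9 lower, with 26.6% of all genes called higher and 1.51% lower. Markers of other cells moved in the same libraries: 6 fibroblast genes summed to 59.1 and 149.6 CPM with mir1301-3p, against 10.5 to 25.5 CPM with the other 4 miRNAs, and 4 liver genes to 15.8 and 19.0 CPM, against 5.76 to 11.9 CPM. The 6 blood genes summed to 9.63 and 12.03 CPM with mir1301-3p, against 5.20 to 9.25 CPM. The 8 HEK 293 markers summed to 997 and 1248 CPM, against 1166 to 2018 CPM. With mir1180-3p the liver sums were 12.1 and 12.4 CPM and the blood sums 7.34 and 12.3 CPM. TNRC6A had 6280.3 and 5667 CPM with mir1301-3p, against 6151 to 16071 CPM (log2 fold change -0.73 ± 0.28, edgeR adjusted p = 0.064). The part of these genes in the result was not tested.

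**Figure D3:**
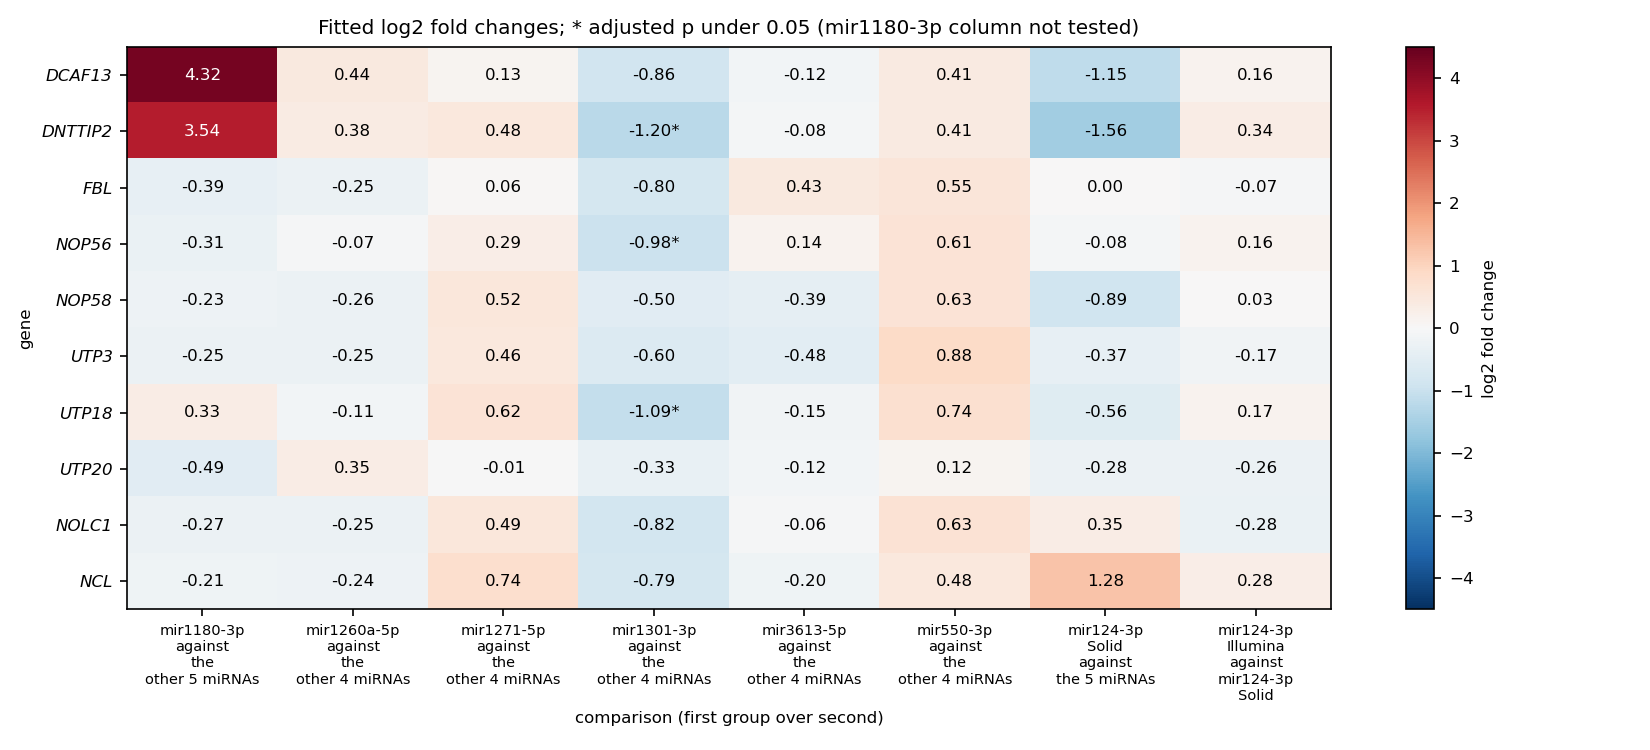
Fitted log2 fold changes of the 10 genes (rows) in the 8 comparisons (columns), the first-named group over the second; a star marks an adjusted p under 0.05, and the mir1180-3p column was not tested. DCAF13 (4.32) and DNTTIP2 (3.54) stand alone in the first column, and the 3 stars are all in the mir1301-3p column, at NOP56, UTP18 and DNTTIP2.

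With mir550-3p the 10 genes leaned the other way, and none was called. The edgeR test gave 3 of them an unadjusted p under 0.05, beside 15.7% of all genes, and 1.18% of all genes were called higher and 0.374% lower. UTP3 came nearest, with 197 and 253 CPM with mir550-3p, against 86.4 to 179.8 CPM (median 105) in the 8 libraries of the other 4 miRNAs, and no overlap. Its log2 fold change was 0.88 ± 0.25 (edgeR adjusted p = 0.088). NOP56 had 814 and 1019 CPM with mir550-3p, against 345 to 771 CPM, also with no overlap (log2 fold change 0.61 ± 0.24, edgeR adjusted p = 0.23), as was so above the range for 6.52% of all genes.

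All 10 log2 fold changes with mir550-3p were positive, between 0.12 for UTP20 and 0.88, with a median of 0.58 beside -0.06 for all genes. With mir1301-3p taken out of the other miRNAs all 10 were still positive and the median was 0.38. TNRC6A had 15555 and 16071 CPM with mir550-3p, the highest of the 12 libraries (log2 fold change 0.97 ± 0.25, edgeR adjusted p = 0.057), and its part in these values was not tested. NOP58 showed how far 2 libraries can part, at 600.1 and 1268 CPM. DESeq2 called 1 of the 10 higher, and so did edgeR without the filter on low counts; in both it was UTP3. Of the 149 other nucleolar genes 2 were called higher: NOL7, at 430.6 and 448 CPM with mir550-3p and 165 ± 46.0 CPM with the others (log2 fold change 1.38 ± 0.26, edgeR adjusted p = 0.012), and UTP15, a processome protein, at 118.9 and 204.7 CPM and 48.8 ± 30.6 CPM (1.72 ± 0.42, adjusted p = 0.047). Neither call was made without either mir550-3p library, or when mir1301-3p was taken out of the other miRNAs.

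**Figure D4:**
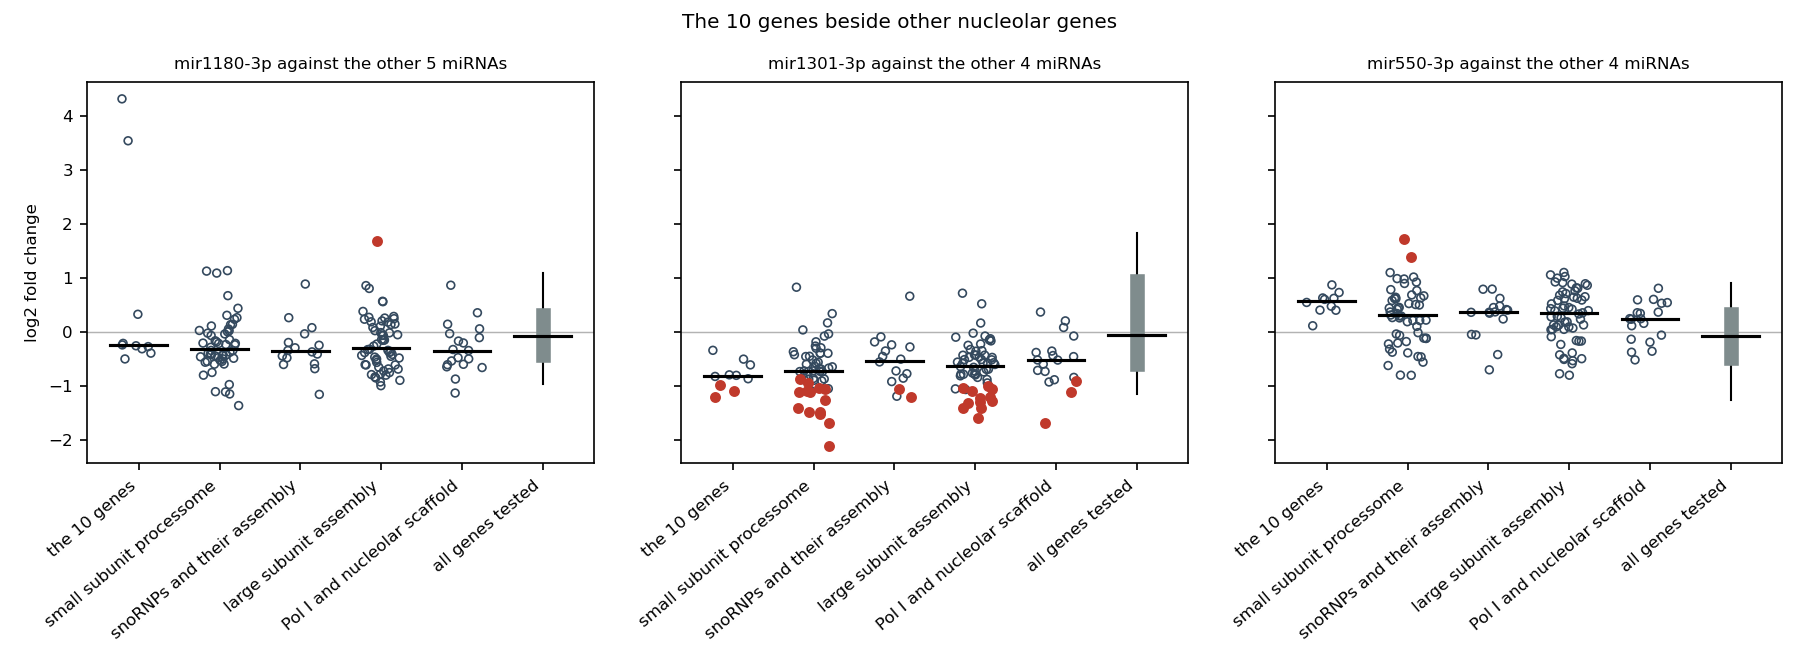
Fitted log2 fold changes of the 10 genes and of 4 lists of other nucleolar genes with mir1180-3p, mir1301-3p and mir550-3p; a point is 1 gene, filled where its adjusted p was under 0.05 (the 10 genes were not tested with mir1180-3p), a bar is the median, and the last column shows the 5th to 95th (line) and 25th to 75th (box) percentile of all genes. The medians of the 10 genes were -0.24, -0.81 and 0.58, and the medians of the lists lie on the same side of 0 in each panel.

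With mir1271-5p, mir1260a-5p and mir3613-5p none of the 10 genes was called by edgeR or by DESeq2. The shares of all genes called higher were 0.493%, 0.181% and 0.0963%, and none was called lower, though 8.25%, 4.69% and 11.2% of all genes (1457, 828 and 1971) had an unadjusted p under 0.05 in those comparisons. One of the 10 did so with mir1271-5p, and none with mir1260a-5p or mir3613-5p.

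With mir1271-5p 9 of the 10 log2 fold changes were positive (7 under upper-quartile scaling, which moved the median of all genes by -0.21), up to 0.74 ± 0.41 for NCL (edgeR adjusted p = 0.64), with a median of 0.47. That median was 0.15, with 6 of 10 positive, without the first mir1271-5p library, and 0.25, with 7 positive, without mir1301-3p among the others. NCL had 241 and 176 CPM with mir1271-5p, against 34.4 to 235 CPM in the 8 libraries of the other 4 miRNAs. With mir1260a-5p the 10 lay between -0.26 and 0.44 and with mir3613-5p between -0.48 and 0.43, with medians of -0.17 and -0.12. Neither median kept its sign: it was 0.03 without the second mir1260a-5p library and 0.15 without the second mir3613-5p library, and without mir1301-3p among the others it was -0.41 and -0.38. DCAF13 had 138 and 112 CPM with mir1260a-5p, against 44.4 to 137 CPM, and FBL had 599 and 765 CPM with mir3613-5p, against 308 to 865 CPM, so both overlapped the others.

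Of the 149 other nucleolar genes only GLTSCR2, now NOP53, a large subunit assembly factor, was called in these 3 comparisons. It had 298.4 and 739.3 CPM with mir1260a-5p and 129.7 ± 49.4 CPM with the other 4 miRNAs (log2 fold change 2.001 ± 0.37, edgeR adjusted p = 0.028), and it was not called without the second mir1260a-5p library, without either mir550-3p library, or without the first library of mir1271-5p or mir3613-5p.

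With mir124-3p, a miRNA of neurons, NCL was high and NOP58 low in every library. NCL had 497, 345 and 529 CPM in the Illumina libraries and 377 CPM in the SOLiD library, against 34.4 to 241 CPM in the 12 libraries of the 6 other miRNAs. NOP58 had 396, 319 and 428 CPM in the Illumina libraries and 374 CPM in the SOLiD library, against 435 to 1268 CPM. In neither gene did the 4 libraries overlap the 12, as was so above the range for 10.6% of all genes and below it for 8.08%. TNRC6A differed between them too, at 46744, 13923 and 48453 CPM on Illumina and 50722 CPM on SOLiD, against 5667 to 16071 CPM. The sequencer of the 12 is not given. The miRNA therefore cannot be told apart from other differences between the 4 libraries and the 12.

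The SOLiD library was set against the 10 libraries of the 5 miRNAs without mir1180-3p, with the spread of the other groups assumed for it. By edgeR none of the 10 genes was called (1 by DESeq2, DNTTIP2), and 3 had an unadjusted p under 0.05, beside 23% of all genes, while 6.36% of all genes were called higher and 1.42% lower. DNTTIP2 had 171 CPM in that library, against 139 to 790.4 CPM with the 5 miRNAs (log2 fold change -1.56 ± 0.52, edgeR adjusted p = 0.077). DCAF13 had 47.5 CPM, against 44.4 to 138 CPM (-1.15 ± 0.45, edgeR adjusted p = 0.131), and the log2 fold change of NCL was 1.28 ± 0.50 (edgeR adjusted p = 0.132). For NOP58 the log2 fold change in the SOLiD library was -0.89 ± 0.46. By mean level of DCAF13 the groups ran upwards through mir124-3p on SOLiD, mir124-3p on Illumina, mir1301-3p, mir3613-5p, mir1271-5p, mir550-3p, mir1260a-5p and mir1180-3p, and up to mir1260a-5p the libraries of neighbours lay within or close to each other's range.

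Among the 149 other nucleolar genes 16 were called higher and 6 lower in the SOLiD library, beside those shares of 6.36% and 1.42%. WBSCR22 had 149.6 CPM in that library and 22.4 ± 8.03 CPM with the 5 miRNAs (log2 fold change 2.70, edgeR adjusted p = 6.24e-05). LAS1L, a factor of large subunit processing, had 97.8 CPM and 8.92 ± 3.83 CPM (3.38), and NOP2, an rRNA methyltransferase, 112.6 CPM and 18.6 ± 10.2 CPM (2.59). The processome genes UTP6 (1.61) and NGDN (1.51), the snoRNP factor PIH1D1 (1.49), EFTUD1 (2.29) and the polymerase subunit POLR1B (1.22) were higher too, and the polymerase subunit TWISTNB (-1.70) was lower.

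The Illumina libraries of mir124-3p held the 10 genes at levels close to those of its SOLiD library. None was called by edgeR or DESeq2 and none had an unadjusted p under 0.05, beside 28.9% of all genes, while 2.37% of all genes were called higher on Illumina and 19.5% lower. Their log2 fold changes lay between -0.28 and 0.34, with a median of 0.10 beside -0.39 for all genes, and 6 of the 10 were positive, against 10 with DESeq2, whose size factors moved the median of all genes by 0.33, and 7 with upper-quartile scaling, which moved it by 0.12. Relative to the median of all genes the 10 stood at 0.49 under these 3 scalings. DNTTIP2 had 189, 306 and 151 CPM on Illumina and 171 CPM on SOLiD, and NOP56 had 697, 713 and 768 CPM on Illumina and 654 CPM on SOLiD. A single SOLiD library cannot be told apart from its platform.

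Of the other nucleolar genes 4 were called higher and 3 lower on Illumina. NPM1, the nucleolar chaperone nucleophosmin, had 3777, 4391 and 3706 CPM on Illumina and 251 CPM on SOLiD (log2 fold change 3.98 ± 0.52, edgeR adjusted p = 1.73e-05), and SENP3 had 1532, 1953 and 1522 CPM and 104 CPM (4.01 ± 0.47, adjusted p = 6.18e-06). NSA2 (1.76) and RRP7A (1.05) were also higher on Illumina, and TSR1 (-1.32), NOP16 (-1.47) and CD3EAP (-2.19) were lower. NPM1 has near-identical pseudogene copies and SENP3 a readthrough transcript with its neighbour, so both counts are uncertain where the authors' counting could split or share reads.

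Across the 10 libraries of the 5 miRNAs without mir1180-3p, the steadiest gene was UTP20, whose highest library was 2.40-fold above its lowest, and the least steady was NCL, at 7.004-fold. The nearest in pattern to NOP56 over the 12 libraries were TRAPPC4 (0.13), CUL1 (0.14) and GSTO1 (0.14), beside a deviation of NOP56 itself of 0.42. For NCL they were UGGT2 (0.30), NDNL2 (0.31) and TAF13 (0.31), beside 0.75 for NCL itself. NOP56, NOP58, UTP20 and NCL carry snoRNA genes within their bounds in RefSeq, such as SNORD110 and SNORD86 in NOP56 and SNORD20 and SNORD82 in NCL, and none of these has an entry of its own in the count table.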

How the data were processed

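The authors deposited raw counts per gene in 1 table, with no normalisation in it, and 1 column for each of the 16 libraries. TopHat2 and the build hg19 are named per the submitters' processing notes; for counter, strandedness and gene models, nothing is given in the sources used here. All 10 RefSeq accessions matched their current symbols. The sequencer of the 12 libraries of the first 6 miRNAs is not given either, and the labels name a SOLiD kit for all 16.

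Genes were fitted with edgeR 4.0.16 in R 4.3.3 (TMM scaling, filterByExpr, robust quasi-likelihood fit on group means), in 12, 13 or 16 libraries, with 17658, 18135 and 18271 genes tested. Tests were two-sided, adjusted by Benjamini-Hochberg over all genes and called at 0.05. CPM use TMM-scaled totals of all 16 libraries, and log2 CPM a prior count of 2. A ± is a standard error for a log2 fold change and a standard deviation for CPM. Depth was 7612758 to 26527365 counts. Replicate pairs of a miRNA differed by more than sampling noise (chi-square per degree of freedom 6.45 to 87.7), so none was merged.

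The members and lists were chosen with earlier results of these data known. Up to 3 called genes per list and comparison were named, by adjusted p at 5 CPM or more, and 3 genes nearest in pattern for 4 members. Alternatives were DESeq2 1.42.0, upper-quartile scaling, no filter, a replicate block, other references and leaving out each library. The procedure was tested on simulated data. Input RNA was not used here.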

Additional observations from a re-analysis of the deposited data

How the results depend on the processing

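NOP56, UTP18 and DNTTIP2, called lower with mir1301-3p, did not change sign under the alternatives run. Some values without a call did: the median of the 10 genes was 0.03 with mir1260a-5p and 0.15 with mir3613-5p without the second library of that miRNA, and with mir1180-3p NOLC1 and NCL reached 0.09 and 0.06 when 1 library was left out, and NOP58 and UTP3 stood at 0.65 and 0.12 against the SOLiD library alone. Leaving out 1 library moved the median on Illumina between 0.03 and 0.51. DESeq2 called 5 of the 10 genes lower with mir1301-3p, 1 higher with mir550-3p (UTP3) and 1 lower in the mir124-3p SOLiD library (DNTTIP2), and 8 and 9 of the other nucleolar genes with mir1180-3p and mir550-3p. Over all genes DESeq2 called 12% lower and 11.2% higher with mir1301-3p, and 1.14% lower and 2.79% higher with mir1180-3p. Upper-quartile scaling called 0 of the 10 and 13 of the other genes with mir1301-3p, beside 1.51% of all genes lower and 26.6% higher. With mir1180-3p it called 4 of the others, beside 0.0906% of all genes lower and 2.79% higher. This scaling moved the median of all genes by 0.45 with mir1301-3p and by 0.16 with mir1180-3p. With no filter on low counts, 3 of the other genes were called with mir1180-3p, beside 0.132% of all genes lower and 2.39% higher. That setting called 1 of the 10 and 4 of the others with mir550-3p. With the mir124-3p SOLiD library alone as the reference, 25 of the others were called with mir1180-3p. With mir1180-3p put into the reference, 16 of the others were called with mir1301-3p and 2 of the 10 in the SOLiD library. Without mir1301-3p in the reference, an alternative chosen after seeing the data, 0 of the others were called with mir1260a-5p and 0 with mir550-3p. The cause was not tested, except that the last 2 settings change which libraries are compared.

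Leaving out 1 library at a time gave 0 to 4 of the 10 genes with mir1301-3p, 0 to 1 in the SOLiD library and 0 elsewhere. Of the other genes it gave 0 to 5 with mir1180-3p, 0 to 1 with mir1260a-5p and with mir1271-5p, 0 to 44 with mir1301-3p, 0 to 6 with mir550-3p, 16 to 27 in the SOLiD library and 6 to 9 on Illumina. DNTTIP2 with mir1301-3p was called in 12 of 17 alternatives (adjusted p 0.011 to 0.30), NOP56 in 14 (0.0017 to 0.18) and UTP18 in 14 (0.0039 to 0.18). NCL in the SOLiD library was called in 1 of 18 (0.026 to 0.22), without the first mir1301-3p library.

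The replicate numbers of the 6 miRNAs only name the libraries, and deviations of equal numbers correlated at -0.30 to 0.50 over 15 pairs of miRNAs, so not every library went with its own number. With the replicate block 4 of the 10 genes and 40 of the others were called with mir1301-3p, 1 of the 10 in the SOLiD library, and of the others 2 with mir1180-3p and 0 with mir1260a-5p. Over all genes the block called 8.52% lower and 18% higher with mir1301-3p, and 0.181% lower and 2.13% higher with mir1180-3p. The lowest member count was 128, at UTP20, and no group had more than 3 libraries.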

Other observations

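Within the pairs of libraries of 1 miRNA, the library with more of a nucleolar gene tended to hold a smaller share of ribosomal protein counts. For DCAF13 and NOP58 this was so in 6 of 6 miRNAs, for NOP56, UTP3, UTP18, UTP20, NOLC1 and NCL in 5 of 6, for DNTTIP2 in 4 and for FBL, the methyltransferase, in 0. Of the 10 genes 8 therefore had 5 or 6 such pairs, beside 28% of the 11466 genes at 5 CPM or more; this was noticed in the data, the 10 genes share the same 12 libraries, and it was not tested. NCL with mir3613-5p shows the size: 167 and 73.2 CPM in libraries with 7.51% and 11.9% of counts from ribosomal protein genes. FBL in the same libraries had 599 and 765 CPM.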
